A study of Arabidopsis thaliana with 12 samples.

Results

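The 33 genes XTH1 to XTH33 of Arabidopsis thaliana encode xyloglucan endotransglucosylase/hydrolases, and all 33 were found by locus identifier among the 32833 genes of the deposited table. RNA of seedlings aged 8 days was sequenced in 12 libraries, 3 for each of 4 groups: the genotypes KC and phod2, each in the conditions P+ and P-. P+ and P- (HP and LP in the design text) were read as high and low phosphate from the subject of the series title, and no concentration, organ or harvest time is named. KC is not expanded and the lesion of phod2 is not given, though the title names LIP1p, a plastid lipoyl synthase, and no transgene or pooling is mentioned. For KC P+ the samples are titled KC and their 3 table columns WT, so a difference between such lines could not be told apart from P- against P+ in KC, from phod2 against KC in P+, or from the interaction.

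Xyloglucan is the main hemicellulose of the primary cell wall of dicots and coats and links cellulose microfibrils. XTH enzymes cut a xyloglucan chain and either join the new end to another chain, which allows the wall to be loosened or strengthened as a cell grows, or release it by hydrolysis. Different members are used by different organs, with a set described in roots and root hairs and others in elongating shoots, vascular tissue or meristems. The 10 members described as root-expressed in the literature, chosen as a list with earlier results of these data known, were XTH12, XTH13, XTH14, XTH17, XTH18, XTH19, XTH20, XTH21, XTH26 and XTH31. The libraries came from seedlings, so the list rests on that literature.

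Total counts ranged from 16821084 to 23327960 per library. LIP1P itself was lower in phod2 than in KC, with a log2 difference of -0.70 ± 0.068 (SE, n = 3 per group here and below) in P+ and -0.83 ± 0.073 in P-, under the 2-fold limit. Replicate 2 of phod2 P- stood apart: its deviations from its group's mean had a Spearman correlation of -0.69 with exonic length over the tested genes, against 0.57 and 0.58 in the other 2 libraries, and the median deviation of the XTH members there was 0.14 (log2). Without it, the same 16 members passed between conditions in phod2. In RNA of mixed organs, fewer cells of a type and less RNA per cell cannot be told apart. Of the 10 root markers, 7 were called lower in phod2 in P+ (median log2 -1.25), against 5.42% of all tested genes. In P- 1 was called lower (median -0.61), against 2.46%, with calls as defined below. The summed root marker level was 2209 to 2249.6 FPKM in KC P+, 1469 to 1481 in KC P-, 941 to 958 in phod2 P+ and 900.2 to 1019 in phod2 P-, and none of the markers was without counts in any group. PYK10 took 94.9% to 96.1% of these sums; the other 9 markers summed to 86.2 to 93.3, 71.2 to 73.6, 38.5 to 41.8 and 43.6 to 52.2 FPKM in the same order. In KC, PIN2 (0.47 ± 0.09), SCR (0.41 ± 0.085), WER (0.69 ± 0.17), RHD6 (the only 1 past 2-fold) and COBL9 (0.57 ± 0.12) were higher in P-, and PYK10 (-0.59 ± 0.042), CASP1 (-1.20 ± 0.082) and CASP2 (-1.32 ± 0.098) lower, so the markers did not move together. Of the 8 shoot markers 1, the trichome gene GL1, was called between genotypes (higher in phod2 in P+, against 1.98% of all tested genes). The shoot marker sum ran from 24710.3 to 32638 over the 12 libraries.

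Of the 33 members 28 reached a mean of at least 1 FPKM (counted reads scaled to the gene's exonic length and the library's total, as deposited) in some group. XTH1, XTH2 and XTH3 had 0 counts in all 12 libraries, which allows a level of at most 0.0629 FPKM in any group (3 counts over a group's 3 libraries, counting error only). XTH29 had 5 to 14 counts per group and failed the filter on low counts together with these 3, which left 29 members tested. Members that passed only through a group where they are high had to differ, so the counts below describe the tested members and not the family. XTH26 reached 10 counts in KC P- libraries alone and XTH25 in P+ libraries alone, so their differences are given as descriptions; without them the counts given below would be 6 rises and 11 falls in P- in KC, 9 falls in phod2, and 8 members lower in phod2 in P-. The family's summed level was 1883 to 1904 FPKM in KC P+, 991 to 1015 in KC P-, 1352 to 1386 in phod2 P+ and 859 to 908 in phod2 P-, so the 4 groups did not overlap. The 10 root-described members made up 109 to 113, 216 to 224, 56.5 to 59.3 and 202 to 225 FPKM of these sums, lowest in phod2 P+. XTH31 alone had means of 44.4, 94.3, 27.3 and 131 FPKM in the same order, so the sums of root-described members rest in large part on this gene. The 23 other members made up 1774 to 1790.5, 768 to 796, 1295 to 1327 and 657 to 683 FPKM, highest in KC P+. The summed root-described members were thus higher in P- than in P+ in both genotypes, and the summed others lower.

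**Figure D1:**
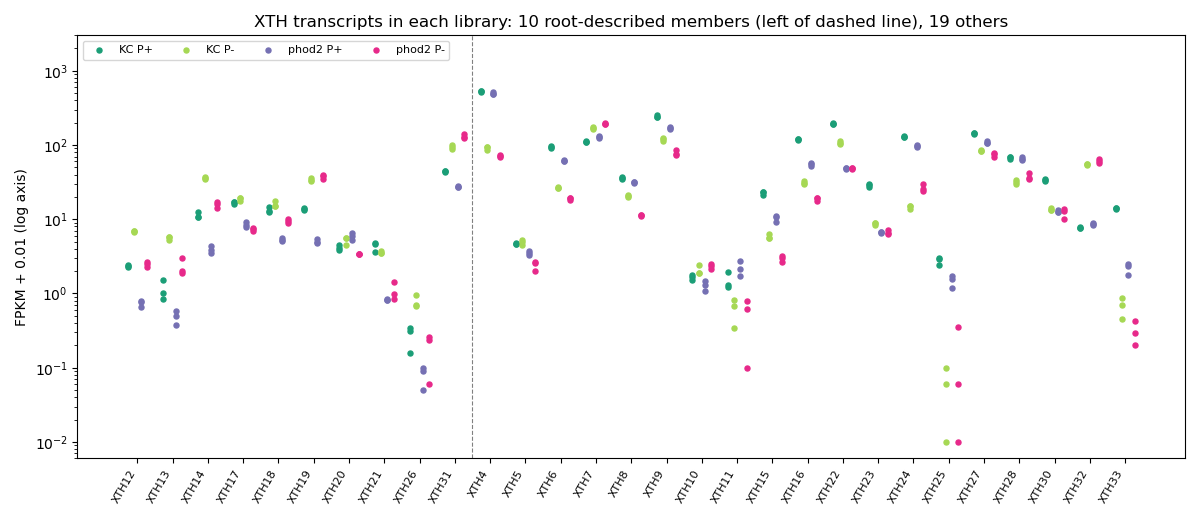
Level of each tested XTH member in each library, as FPKM + 0.01 on a log axis. Points are single libraries, 3 per group and colour, with the 10 root-described members left of the dashed line. XTH4 reaches the highest level, 535, 517 and 528 FPKM in KC P+, and XTH25 the lowest among those tested, with libraries at 0 in KC P- and phod2 P-.

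The most abundant members by mean level per length were XTH4, XTH9, XTH7 and XTH27. XTH4, which with XTH9 has been linked to growth of woody stem tissue, stood at 535, 517 and 528 FPKM in KC P+, 86.4, 92.8 and 92.5 in KC P-, 480.2, 490.2 and 516 in phod2 P+, and 70.9, 73.05 and 69.2 in phod2 P-. Every P- library lay below every P+ library in both genotypes, and phod2 was within 2-fold of KC in each condition. XTH9 stood at 238, 242 and 251 FPKM in KC P+, 119, 115 and 124 in KC P-, 171, 173 and 165 in phod2 P+, and 76.2, 85.2 and 73.7 in phod2 P-, with P- below P+ and phod2 below KC in each condition. XTH7, in contrast, was higher in P-, at 111, 110.0 and 113 FPKM in KC P+, 166, 172 and 169 in KC P-, 129, 125 and 133 in phod2 P+, and 195, 192 and 191 in phod2 P-. XTH27, described in developing vessel cells of leaves, stood at 145, 145 and 141 FPKM in KC P+, 82.7, 86.04 and 83.04 in KC P-, 106, 112 and 107 in phod2 P+, and 78.01, 69.05 and 75.5 in phod2 P-, lower in P- than in P+ without overlap in both genotypes. Of these 4, XTH4 and XTH9 were called between conditions in both genotypes (log2 -2.52 ± 0.062 and -1.01 ± 0.075 in KC, -2.74 ± 0.063 and -1.05 ± 0.076 in phod2), while XTH7 (0.62 and 0.64) and XTH27 (-0.75 and -0.48) differed by less than 2-fold.

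The comparison of P- with P+ asks how each genotype's XTH transcripts differed between phosphate conditions. Calls rest on edgeR's quasi-likelihood test, with an adjusted p (over all 20891 genes tested) no higher than 0.05 and a difference of 2-fold or more. In KC, 7 of 29 tested members rose in P-, against 10.9% of all tested genes, and 12 fell, against 9.6%. Of the 7 that rose, 6 were root-described members (XTH12, XTH13, XTH14, XTH19, XTH26 and XTH31), and the other was XTH32. XTH26 passed the filter only through KC P-, where it is high, so its place among these is a description only. None of the 12 that fell was on the root list; at an unadjusted p under 0.05 the root list also held 0 members lower by 2-fold, and DESeq2 called 0. The median log2 of the 10 root-described members was 1.22, that of the 19 other tested members -1.28 and that of all tested genes 0.008. Called members had adjusted p of 2.23e-13 to 0.0172 in edgeR's quasi-likelihood test.

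Among root-described members, the root hair and root epidermis genes XTH12, XTH13 and XTH14 were higher in P- in both genotypes. XTH12 stood at 2.28, 2.36 and 2.38 FPKM in KC P+, 7.04, 6.96 and 6.80 in KC P-, 0.65, 0.78 and 0.76 in phod2 P+, and 2.61, 2.27 and 2.45 in phod2 P-. The groups did not overlap except that KC P+ and phod2 P- met in range. Its log2 change was 1.59 ± 0.11 in KC and 1.80 ± 0.16 in phod2. XTH13 changed by 2.37 ± 0.22 and 2.31 ± 0.30, and XTH14 by 1.68 ± 0.097 and 2.08 ± 0.12. XTH31, which has hydrolase activity and is known from aluminium responses of roots, stood at 45.2, 42.98 and 45.1 FPKM in KC P+, 98.8, 95.1 and 89.02 in KC P-, 27.02, 27.98 and 26.9 in phod2 P+, and 124, 143 and 127 in phod2 P-. It was highest in phod2 P- and lowest in phod2 P+, with no overlap between any groups, and rose 2.15-fold in KC and 5.03-fold in phod2. XTH26, known from root hairs, was a low gene with 19, 49, 5 and 12 counts summed over KC P+, KC P-, phod2 P+ and phod2 P-, and it passed the filter only through KC P-. It was called in KC (1.61 ± 0.39, adjusted p = 0.00255 by edgeR) and not in phod2 (1.34 ± 0.70).

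XTH19, a root gene also known from the healing of cut stems, stood at 14.1, 13.7 and 13.1 FPKM in KC P+, 32.5, 35.7 and 33.5 in KC P-, 4.74, 4.90 and 5.34 in phod2 P+, and 38.8, 39.5 and 34.98 in phod2 P-. P- was above P+ in both genotypes, and the lowest levels were in phod2 P+. XTH17 and XTH18, its close relatives in roots, were not called between conditions, with log2 values of 0.20 and 0.26 in KC and -0.15 and 0.90 in phod2. Neither was XTH20 (0.35 and -0.74) nor XTH21 (-0.27 and 0.50), a gene known for its part in primary root growth. Of windows of 50 exonic bases, 1.77% of those of XTH19 and 1.7% of those of XTH18 recur in another member, the closest being each other, so counts of this pair may be shared in small part. XTH17 shared 0.182% of its windows, and the remaining members shared none.

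Outside the root list, XTH32 was the only tested member called higher in P-. This close relative of XTH31 stood at 7.54, 7.63 and 7.93 FPKM in KC P+, 55.3, 54.4 and 54.95 in KC P-, 8.35, 9.00 and 8.69 in phod2 P+, and 57.9, 64.5 and 60.8 in phod2 P-, with both P- groups above both P+ groups. Its change was 2.85 ± 0.077 in KC and 2.88 ± 0.077 in phod2, 7.23-fold and 7.37-fold.

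XTH25, XTH33 and XTH24 had the largest falls in KC. XTH33, predicted to be anchored in the membrane, stood at 13.9, 13.6 and 14.1 FPKM in KC P+, 0.87, 0.69 and 0.44 in KC P-, 2.33, 1.76 and 2.50 in phod2 P+, and 0.41, 0.19 and 0.28 in phod2 P-. The groups were ordered KC P+, phod2 P+, KC P- and phod2 P- without overlap, and the P- difference was -4.33 ± 0.18 in KC and -2.78 ± 0.27 in phod2. XTH24, first described as the meristem gene MERI5, stood at 133, 129 and 127 FPKM in KC P+, 13.6, 15.01 and 14.9 in KC P-, 98.1, 93.3 and 100.1 in phod2 P+, and 24.3, 29.8 and 25.4 in phod2 P-. It was below P+ in every P- library and fell 8.82-fold in KC and 3.50-fold in phod2. XTH25 stood at 2.43, 2.98 and 2.94 FPKM in KC P+, 0.09, 0 and 0.05 in KC P-, 1.71, 1.17 and 1.58 in phod2 P+, and 0, 0.34 and 0.05 in phod2 P-, with P- far below P+ in both genotypes. Its 210 counts in KC P+ against 3 in KC P- give a ratio of 58.7 (95% counting interval 19.8 to 287), and the fitted log2 of -5.71 ± 0.59, of a gene that passed the filter only through P+ libraries, depends on the prior count. In phod2 the fitted difference was -3.53 ± 0.55 from 107 counts against 8, of which 7 came from replicate 2 of phod2 P-; without that library it was -5.75.

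The 250 bases before the annotated start are shown for XTH25, XTH33 and XTH19, which are among the members with the largest called condition differences. They were read from TAIR10.1 5′ to 3′ on the gene's strand, the minus strand for all 3. Capitals mark matches on either strand to any of the motifs searched: the G-box CACGTG, the phosphate-response element P1BS GNATATNC, the evening element AAAATATCT, the CCA1-binding site AAAAATCT and the auxin response element TGTCTC.
XTH25 (chr5:23306441-23306690): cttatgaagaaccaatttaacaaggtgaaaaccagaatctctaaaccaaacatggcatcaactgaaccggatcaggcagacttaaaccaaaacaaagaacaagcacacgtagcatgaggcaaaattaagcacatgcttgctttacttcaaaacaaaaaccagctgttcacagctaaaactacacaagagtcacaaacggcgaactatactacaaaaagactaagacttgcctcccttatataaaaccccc
XTH33 (chr1:3481042-3481291; gene AT1G10550, chromosome 1, 3479066 to 3481041): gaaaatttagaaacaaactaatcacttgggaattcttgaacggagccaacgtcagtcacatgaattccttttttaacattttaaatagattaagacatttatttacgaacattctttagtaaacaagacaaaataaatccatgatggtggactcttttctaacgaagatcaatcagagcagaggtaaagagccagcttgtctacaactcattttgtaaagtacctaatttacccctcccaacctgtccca
XTH19 (chr4:14830225-14830474): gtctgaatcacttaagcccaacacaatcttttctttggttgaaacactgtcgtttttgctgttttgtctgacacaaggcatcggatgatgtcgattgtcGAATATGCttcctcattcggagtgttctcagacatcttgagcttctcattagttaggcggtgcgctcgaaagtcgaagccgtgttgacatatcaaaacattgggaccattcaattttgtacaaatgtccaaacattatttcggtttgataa
The window of XTH25 lies between it and XTH22. Of the 3, XTH19 held a match, GAATATGC to P1BS, 151 to 144 bases before the start. Over the 33 members, P1BS was in the windows of XTH2 and XTH19 (6.06%, against 5.45% of 27426 protein-coding windows of the same length). The CCA1-binding site was in those of XTH1, XTH13 and XTH22 (9.09% against 6.68%) and the auxin element in those of XTH3 and XTH6 (6.06% against 10.9%). The G-box and the evening element were in 0 member windows, against 6.49% and 2.36% of all. None of the motifs is contained in another, and a match describes letters only.

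Further members that fell in P- in both genotypes were XTH4, XTH6, XTH9, XTH11, XTH15 and XTH16. XTH15 and XTH16, known from shade-induced elongation of shoots, changed by -1.92 ± 0.10 and -1.93 ± 0.06 in KC and by -1.75 ± 0.12 and -1.49 ± 0.062 in phod2. XTH6 changed by -1.79 ± 0.056 and -1.65 ± 0.057, and the low gene XTH11 by -1.28 ± 0.43 and -2.06 ± 0.42. The call of XTH11 in KC was lost without KC P+ replicate 1 (adjusted p = 0.0804 by edgeR) or KC P- replicate 3 (0.0758; 0.0002 to 0.0804 over all alternatives), and XTH9, at the 2-fold limit, was under it without KC P+ replicate 3 or KC P- replicate 2 in KC and without phod2 P- replicate 3 in phod2. XTH15 overlaps a gene on the other strand (AT4G14120) by 382 bases, and the counting is not stated to use strand.

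In phod2, 6 of 29 tested members rose in P-, against 14.1% of all tested genes, and 10 fell, against 10.3%. The 6 were all among the 7 of KC (85.7% of the KC calls and 100% of the phod2 calls), and of the members that fell 9 were called in both genotypes (75% and 90%). The same overlap over all called genes was not computed, so it is not read as a trait of the family. XTH8 was called in phod2 alone (-1.39 ± 0.066, against -0.79 ± 0.062 in KC), and XTH23, XTH28 and XTH30 were called in KC and not in phod2. XTH28, known from stamen growth, was lower in P- without overlap in both genotypes, with -1.08 ± 0.092 in KC and -0.73 ± 0.091 in phod2 (adjusted p = 6.44e-06 by edgeR), the second under 2-fold. These lists do not show that a change differed between genotypes, which the interaction below tests. The median was 1.57 for the root-described members, -1.05 for the others and 0.0086 for all tested genes, and called members had adjusted p of 9.15e-14 to 0.000529 by edgeR.

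Over the 4 pairwise comparisons 25 of the 29 tested members were called at least once, and XTH7, XTH10, XTH20 and XTH27 in none. The share of all tested genes called at least once was not computed, so this count only describes the members. XTH10 was a low member at 1.67, 1.79 and 1.49 FPKM in KC P+, 1.86, 2.40 and 1.88 in KC P-, 1.06, 1.46 and 1.28 in phod2 P+, and 2.16, 2.47 and 2.31 in phod2 P-, with log2 values of 0.34 and 0.93 between conditions. XTH8 was a member of middle level, at 35.01, 35.96 and 37.2 FPKM in KC P+, 20.6, 21.4 and 19.7 in KC P-, 31.3, 31.3 and 30.6 in phod2 P+, and 11.5, 11.5 and 11.01 in phod2 P-, lowest in phod2 P-.

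**Figure D2:**
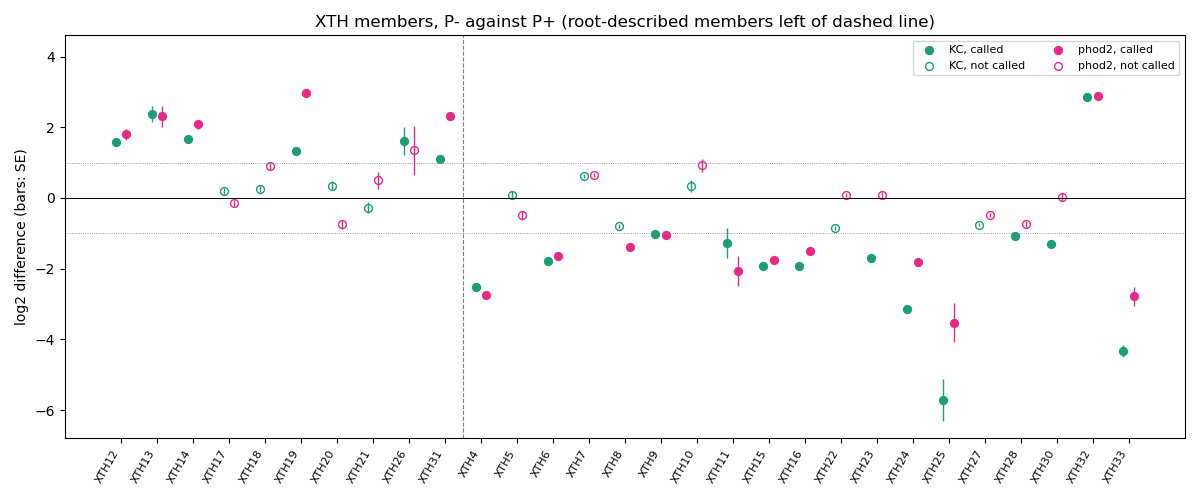
Log2 difference between P- and P+ for each tested XTH member in KC (green) and phod2 (pink), with SE bars; filled points passed both limits and dotted lines mark 2-fold. Root-described members, left of the dashed line, hold 6 of the 7 rises called in KC, and XTH25 and XTH33 have the lowest values in KC (-5.71 and -4.33). XTH26 passed the filter only through KC P-, and XTH25 only through P+ libraries.

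The clock genes differed with the conditions beside all of these members. Of 7 morning genes 6 were higher in P- in both genotypes, and of 8 evening genes 7 were lower and GI higher. Of all tested genes, 10.9% were higher and 9.6% lower in KC, and 14.1% and 10.3% in phod2. The morning list summed to 25.6 to 26.1 FPKM in KC P+ and 271 to 280.2 in KC P-, and to 27.7 to 30.8 and 228 to 293 in phod2. The evening list summed to 301 to 311 and 29.9 to 30.99 in KC and to 281 to 288 and 18.6 to 25.8 in phod2. CCA1, a core morning gene, differed by 8.85 in KC and 9.28 in phod2, and TOC1, a core evening gene, by -3.02 and -3.21. With no harvest time in the labels, condition and time of day cannot be told apart for any XTH member. Root markers were called higher in P- in 1 of 10 cases and lower in 2 in KC, against 10.9% and 9.6% of all tested genes. In phod2 they were called higher in 5 of 10 and lower in 0, against 14.1% and 10.3%. There 1 was lower at an unadjusted p under 0.05 with edgeR, and DESeq2 called 0 lower. The markers' part in the rise of root-described members was not tested.

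The comparison of phod2 with KC asks which members differ with genotype within a condition. In P+, 12 of 29 tested members were lower in phod2, against 5.42% of all tested genes, and 0 were higher, against 1.98%. At an unadjusted p under 0.05 edgeR had 2 members higher by any fold and 0 by 2-fold, and DESeq2 called 0. The 12 were the root-described XTH12, XTH13, XTH14, XTH18, XTH19 and XTH21 and the others XTH15, XTH16, XTH22, XTH23, XTH30 and XTH33. Their adjusted p ran from 2.84e-11 to 0.0152 by edgeR. Of the 12, 10 lie in the branch formed by XTH12 to XTH26, which holds 15 of the 29 tested members and 9 of the 10 root-described ones. The median was -1.40 for root-described members, -0.44 for the others and 0.036 for all tested genes. The root markers, of which 7 of 10 were lower in the same comparison, had a median of -1.25, and their part in the result was not tested.

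XTH21 stood at 4.70, 4.84 and 3.61 FPKM in KC P+, 3.48, 3.52 and 3.68 in KC P-, 0.80, 0.83 and 0.80 in phod2 P+, and 1.44, 0.82 and 0.98 in phod2 P-. Both phod2 groups were below both KC groups, and the log2 difference was -2.44 ± 0.19 in P+ and -1.66 ± 0.19 in P-. XTH22, the touch gene TCH4 that is also induced by brassinosteroid, stood at 198, 195 and 191 FPKM in KC P+, 103, 106 and 112 in KC P-, 48.6, 48.4 and 47.1 in phod2 P+, and 49.02, 49.8 and 47.5 in phod2 P-. All phod2 libraries lay below all KC libraries and in 1 narrow range over both conditions, and the log2 difference was -2.03 ± 0.063 in P+ and -1.10 ± 0.061 in P-. XTH23 stood at 27.1, 29.8 and 28.6 FPKM in KC P+, 8.83, 8.83 and 8.36 in KC P-, 6.66, 6.42 and 6.66 in phod2 P+, and 6.49, 6.37 and 7.23 in phod2 P-, with KC P+ far above the other 3 groups and a difference of -2.13 ± 0.071 in P+ against -0.35 ± 0.078 in P-. XTH33, whose levels are given above, was 6.35-fold lower in phod2 in P+ (log2 -2.67 ± 0.14).

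In P-, 9 of 29 tested members were lower in phod2, against 2.46% of all tested genes, and 0 were higher, against 2.23% (edgeR had 6 higher by any fold at an unadjusted p under 0.05 and 0 by 2-fold, and DESeq2 called 0). They were the root-described XTH12, XTH13, XTH14, XTH17, XTH21 and XTH26 and the others XTH5, XTH22 and XTH33. Of these, 6 were also among the 12 of P+ (XTH12, XTH13, XTH14, XTH21, XTH22 and XTH33), which is 50% of the P+ calls and 66.7% of the P- calls. For this overlap, too, the value over all called genes was not computed. XTH26, which passed the filter only through KC P-, had a fitted difference of -2.06 ± 0.44 and stood at 0.15, 0.33 and 0.30 FPKM in KC P+, 0.94, 0.66 and 0.70 in KC P-, 0.09, 0.08 and 0.04 in phod2 P+, and 0.23, 0.25 and 0.05 in phod2 P-. KC P- lay above all other groups for this gene. XTH12 differed by -1.47 ± 0.11 in P- and -1.69 ± 0.16 in P+, XTH13 by -1.26 ± 0.20 and -1.20 ± 0.34, and XTH14 by -1.15 ± 0.095 and -1.56 ± 0.12. XTH17, known for a role in aluminium responses of roots, stood at 16.8, 15.9 and 17.1 FPKM in KC P+, 19.3, 19.3 and 17.7 in KC P-, 7.95, 8.40 and 9.12 in phod2 P+, and 7.67, 7.40 and 6.90 in phod2 P-, lower in phod2 in both conditions without overlap, with -1.33 ± 0.083 in P- and -0.98 ± 0.081 in P+, the second just under 2-fold. In P- the root marker list had 1 called member, COBL9 (-1.22 ± 0.13), a root hair gene, and a median of -0.61 beside -1.21 for the root-described XTH members, -0.32 for the other members and 0.003 for all tested genes. By any fold, 6 of the 10 markers were lower and 0 higher at an adjusted p of at most 0.05 by edgeR. The highest log2 among the markers was -0.12, and their part in the result was not tested.

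Called members in P- had adjusted p of 1.93e-08 to 0.0353 by edgeR. XTH33 in P- (-1.12 ± 0.35) rested on 44 counts against 21 and lost its call without KC P- replicate 1 (adjusted p = 0.153 by edgeR) or 2 (0.0856) or phod2 P- replicate 2 (0.0759) or 3 (0.0739), with a range of 0.0121 to 0.153 over the alternatives that tested it. With only KC P- and phod2 P- in the fit it failed the filter on low counts and was not tested. XTH13 in P+ lost its call without KC P+ replicate 2 (0.0664) or phod2 P+ replicate 3 (0.0703; range 0.000946 to 0.0703), and XTH5, at -1.02 ± 0.12, fell under 2-fold without KC P- replicate 3 or phod2 P- replicate 1.

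**Figure D3:**
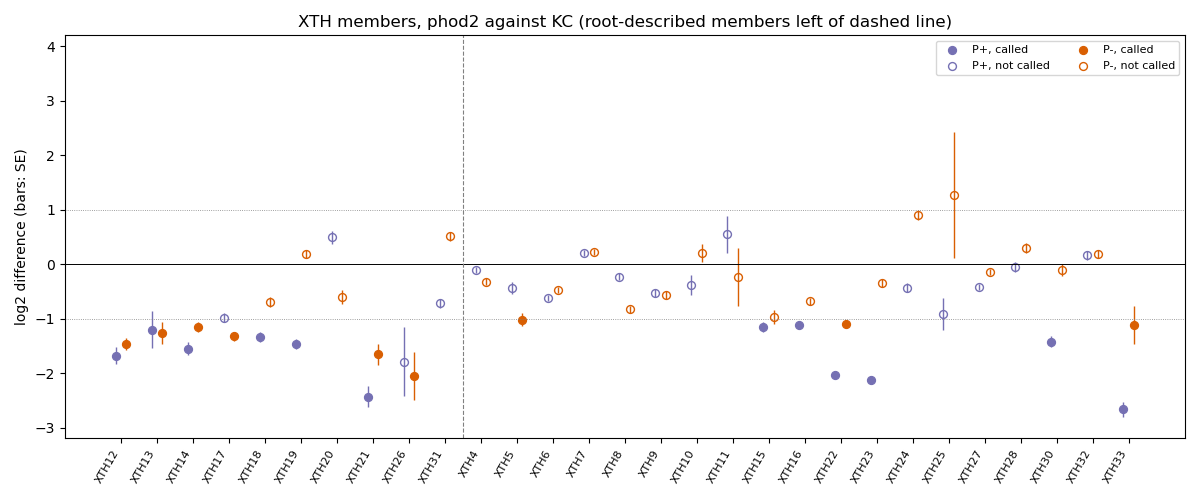
Log2 difference between phod2 and KC for each tested XTH member in P+ (violet) and P- (orange), with SE bars; filled points passed both limits and dotted lines mark 2-fold. All filled points lie below 0, with XTH33 lowest in P+ (-2.67) and XTH26 lowest in P- (-2.06). XTH26 passed the filter only through KC P-.

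The interaction, the log2 change from P+ to P- in phod2 minus that in KC, asks whether a member's condition difference depended on genotype. It was called for 6 members in the higher direction, against 2.39% of all tested genes, and for 1 in the lower, against 0.685%. XTH23 had the largest value, 1.78 ± 0.11 (adjusted p = 1.93e-07 by edgeR), with a fall of 3.23-fold in KC and a log2 difference of 0.09 ± 0.079 in phod2, where all libraries lay below the KC P- level. XTH30, which has been tied to salt responses, showed the same form at 34.8, 33.5 and 33.05 FPKM in KC P+, 13.3, 14.01 and 13.4 in KC P-, 13.3, 12.4 and 12.4 in phod2 P+, and 10.2, 13.9 and 12.98 in phod2 P-. Only its KC P+ libraries stood apart, and the interaction was 1.32 ± 0.15 (adjusted p = 5.34e-05 by edgeR). KC P+ is the group whose columns are headed WT, so a difference between lines cannot be told apart from the interactions of XTH23 and XTH30.

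XTH19 and XTH31, which rose in both genotypes, rose more in phod2, with interactions of 1.65 ± 0.12 and 1.22 ± 0.11 (adjusted p = 1.07e-06 and 9.79e-06 by edgeR). For both, all phod2 libraries were below KC in P+, while in P- the difference was 0.19 ± 0.075 and 0.51 ± 0.078. The median interaction was 0.70 for the root markers, 0.31 for the root-described XTH members and -0.003 for all tested genes. Of the 10 root markers 1 was called higher, against 2.39% of all tested genes, and 0 lower, against 0.685%. By any fold, 5 were higher at an adjusted p of at most 0.05 by edgeR. The markers' part in the interactions of XTH19 and XTH31 was not tested. XTH24 and XTH33, which fell in both genotypes, fell less in phod2, with 1.34 ± 0.13 and 1.55 ± 0.42 (adjusted p = 1.22e-05 and 0.0273 by edgeR). For XTH33 this call was lost without KC P- replicate 2 (0.0528) or 3 (0.0542) or phod2 P- replicate 1 (0.157), the range being 8.21e-06 to 0.157. XTH20 went the other way, at 3.87, 4.12 and 4.54 FPKM in KC P+, 5.59, 5.63 and 4.52 in KC P-, 5.97, 5.25 and 6.54 in phod2 P+, and 3.35, 3.42 and 3.43 in phod2 P-. Its phod2 libraries were above all KC libraries in P+ and below all of them in P-, and the interaction was -1.09 ± 0.17 (adjusted p = 0.000940 by edgeR).

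**Figure D4:**
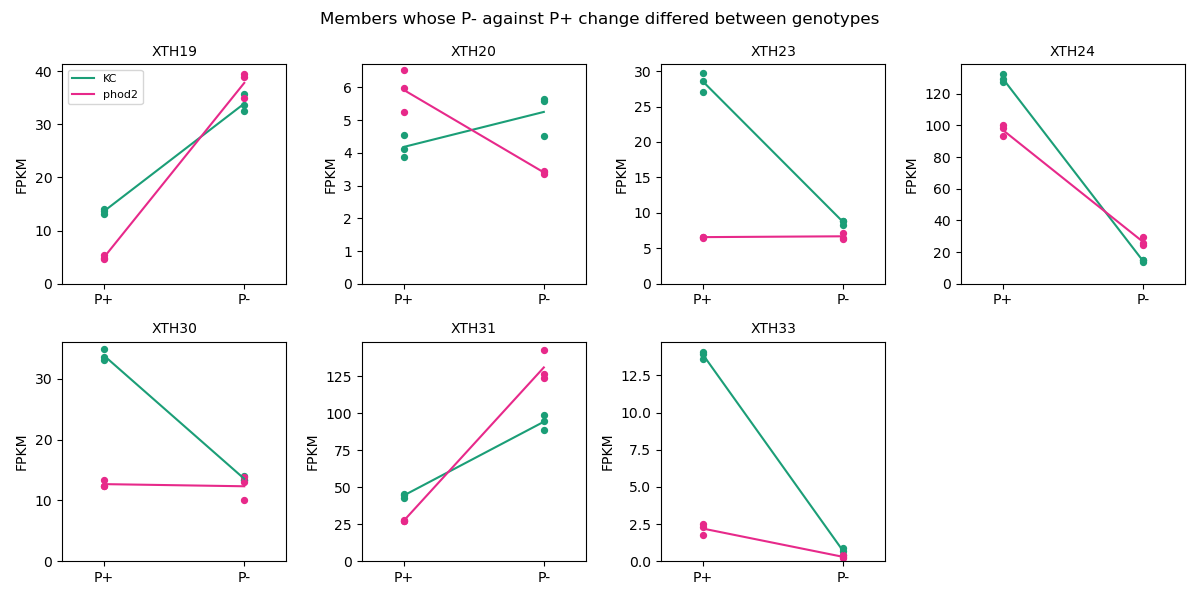
FPKM of the 7 members called in the interaction, by condition, in KC (green) and phod2 (pink). Points are single libraries and lines join group means; XTH23 and XTH30 are nearly level in phod2, and the lines of XTH19, XTH20, XTH24 and XTH31 cross.

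Several members lie side by side in the genome, and each of 3 such arrays held members called in opposite directions in KC. In the chromosome 5 array the only called fall is that of XTH25, which passed the filter only through P+ libraries. The opposite directions there are thus a description only. On chromosome 4, XTH23 (AT4G25810, chromosome 4, 13128394 to 13129927, coordinates as deposited, equal to TAIR10.1) ends 363 bases before XTH14 (AT4G25820, chromosome 4, 13130291 to 13131860) on the same strand. In KC, XTH23 fell by 1.69 ± 0.069 on the log2 scale in P- while XTH14 rose by 1.68 ± 0.097. XTH14 stood at 10.7, 10.7 and 12.6 FPKM in KC P+, 34.6, 36.2 and 36.7 in KC P-, 3.46, 3.86 and 4.31 in phod2 P+, and 15.97, 17.02 and 14.2 in phod2 P-. Elsewhere on chromosome 4, XTH24 (AT4G30270, chromosome 4, 14819192 to 14820595), XTH18 (AT4G30280, chromosome 4, 14825757 to 14827211) and XTH19 (AT4G30290, chromosome 4, 14828712 to 14830224) follow each other on the minus strand with no other gene of the table between them. XTH24 fell, XTH18 was not called (0.26 in KC and 0.90 in phod2) and XTH19 rose. The chromosome 5 array runs from XTH12 (AT5G57530, chromosome 5, 23300321 to 23301689) through XTH13 (AT5G57540, chromosome 5, 23302787 to 23304095) and XTH25 (AT5G57550, chromosome 5, 23304782 to 23306440) to XTH22 (AT5G57560, chromosome 5, 23307006 to 23308680), again on the minus strand, with 1 other gene between XTH12 and XTH13. There XTH12 and XTH13 rose in P-, XTH25, 686 bases from XTH13, fell, and XTH22 was not called, at -0.84 in KC and 0.09 in phod2. XTH1 and XTH2, 3139 bases apart on chromosome 4, were without counts.

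**Figure D5:**
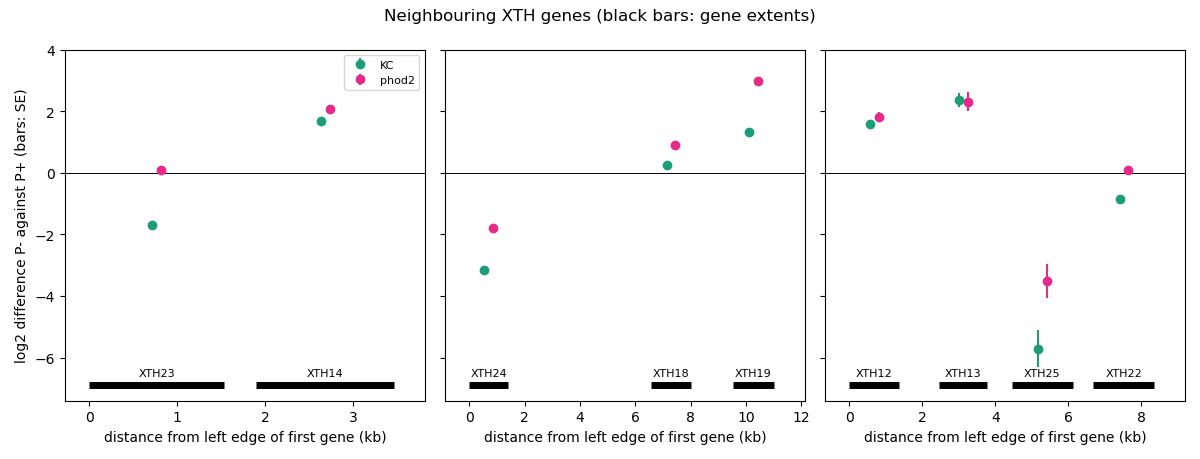
Log2 difference between P- and P+ (SE bars) for neighbouring XTH genes, placed by distance in kb from the left edge of the first gene, with black bars for gene extents; KC (green) and phod2 (pink) points are shifted sideways for clarity. XTH14 lies above 0 beside XTH23, XTH19 above and XTH24 below 0, and XTH25 far below 0 beside XTH13. XTH25 passed the filter only through P+ libraries.

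Of 16 other genes of xyloglucan synthesis, all tested, 1 was higher and 1 lower in P- in KC, against 10.9% and 9.6% of all tested genes. They were AXY4, which acetylates xyloglucan (1.08 ± 0.069), and CSLC4, a synthase of the glucan backbone (-1.22 ± 0.066). In phod2 2 were higher, against 14.1% of all tested genes, AXY4 (1.08 ± 0.072) and the galactosyltransferase gene XLT2 (1.59 ± 0.084). Between genotypes 1 of 16 was called, against 5.42% of all tested genes lower in P+ and 2.46% in P-. It was XUT1, the root-hair galacturonosyltransferase, which was lower in phod2, with -3.21 ± 0.39 in P+ and -2.27 ± 0.36 in P-. XUT1 stood at 1.02, 1.01 and 1.28 FPKM in KC P+, 1.19, 1.05 and 1.02 in KC P-, 0.29, 0.06 and 0.03 in phod2 P+, and 0.24, 0.19 and 0.22 in phod2 P-, both phod2 groups below both KC groups. Of 3 genes of xyloglucan trimming, BGAL10, a beta-galactosidase, fell in P- in both genotypes, with -2.80 ± 0.074 in KC and -3.16 ± 0.075 in phod2, and the fucosidase gene AXY8 fell in phod2 (-1.27 ± 0.092). The medians of the synthesis list were 0.14 in KC, 0.26 in phod2, -0.18 between genotypes in P+ and -0.21 in P-.

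Of 19 alpha-expansin genes, whose proteins loosen walls without cutting them, 17 were tested. In KC 2 were higher in P-, against 10.9% of all tested genes, the lateral root gene EXPA17 (1.47 ± 0.17) and the root hair gene EXPA18 (1.32 ± 0.16). In phod2 3 were higher and 3 lower, against 14.1% and 10.3% of all tested genes, so these shares lie near the background. They include EXPA18 (2.03 ± 0.21), EXPA8 (-2.15 ± 0.084) and EXPA1 (-1.40 ± 0.069). Between genotypes in P+, 5 were lower in phod2, against 5.42%, and 1, EXPA16, higher (1.00 ± 0.11), against 1.98%. In P- 3 were lower, against 2.46%. The root hair gene EXPA7 had -1.89 ± 0.14 in P+ and -1.42 ± 0.12 in P-, EXPA18 -1.86 ± 0.21 and -1.16 ± 0.16, and EXPA17 -1.04 ± 0.21 and -1.63 ± 0.18.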

How the data were processed

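Per the file headers, the deposited table holds unnormalized counts and FPKM for each gene in 12 libraries. The aligner, counter, annotation and use of strand are not given in the sources used here, and the submitters' processing notes name mm10, a mouse assembly, although identifiers and coordinates are Arabidopsis. All 33 members had the same start and end in RefSeq TAIR10.1. The deposited FPKM values differed from those recomputed from counts, exonic lengths and totals by at most 0.005.

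Counts were scaled by TMM, filtered with filterByExpr (smallest count 10) and fitted with 4 group means over the 12 libraries for edgeR's quasi-likelihood test; p-values were adjusted over 20891 genes (Benjamini-Hochberg) and calls needed an adjusted p of at most 0.05 and 2-fold, the limits in the series' design text. SEs were taken from the test statistic. Replicates are 3 biological replicates per genotype, per the design text. Same-numbered libraries did not deviate together (r from -0.063 to 0.062 over 18 pairs), so no block was used. Members and lists were chosen with earlier results of these data known. Values in every library are given for the 4 largest called changes per pairwise comparison, the 4 most abundant members and the members called in the interaction; up to 3 genes per related list and comparison are named, and the values of XTH8, XTH10, XTH14 and XUT1 in every library were added beyond that rule after they were seen. No protein sequence was printed, and 1 further sequence is not reported here. The fits were tested on simulated data. The tools were edgeR 4.0.16 (main test), DESeq2 1.42.0 and limma 3.58.1 (alternatives), in R 4.3.3.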

Additional observations from a re-analysis of the deposited data

Results flagged for a closer look

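For 7 members the P- against P+ difference differed between phod2 and KC in the interaction test. The interaction (log2, phod2 minus KC) was 1.78 for XTH23, 1.65 for XTH19, 1.55 for XTH33, 1.34 for XTH24, 1.32 for XTH30, 1.22 for XTH31 and -1.09 for XTH20. Of these, XTH19, XTH20 and XTH31 are root-described. For all 7, a difference between lines titled KC and headed WT in KC P+ cannot be told apart from the interaction.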

How the results depend on the processing

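The numbers of members called higher and lower in the 5 comparisons stayed within 1.5 times of the values above in 197 of 198 recomputations; under limma on log2(FPKM + 1) the 1 member lower in the interaction, XTH20, was not called (0 members; edgeR has 5 lower at an unadjusted p under 0.05); the cause was not tested. Leaving out 1 library at a time gave 7 higher and 11 to 12 lower members in KC, 6 to 7 and 9 to 10 in phod2, 0 and 12 to 14 between genotypes in P+, 0 and 8 to 9 in P-, and 5 to 6 and 1 in the interaction. Of 1492 single-member values recomputed, 0 reversed and 27 lost their call, 9 of them under limma on log2(FPKM + 1) and 16 with a library left out. With the replicate number as a block, although the numbers do not pair the libraries, the same members were called in every comparison (7 higher and 12 lower in KC), and so they were with DESeq2's test and with its size factors. With the length trend removed, XTH5 between genotypes in P- was under 2-fold (-0.99), and XTH15 in P- and XTH26 in P+ were called in addition. With only the 2 groups compared in the fit, XTH17 was called in addition in P+ and XTH33 was not tested in P-. On log2(FPKM + 1), which shrinks low genes, XTH25 was at -1.85 in KC and -1.14 in phod2, and XTH11, XTH13, XTH33 and XTH5 each lost a call. There XTH12 lost its calls between conditions in phod2 and between genotypes in P+. XTH26 lost its calls between conditions in KC and between genotypes in P-. On log2(FPKM + 0.1), XTH33 lost its call between genotypes in P-. The median log2 of all genes lay at most 0.0642 from 0 in these recomputations. Members of few counts, XTH25, XTH26, XTH11 and XTH33 in P-, are limited by depth.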

Other observations

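The make-up of the family's total is given as each member's share of the summed group means, with no test. XTH4 took 27.8% of the XTH total in KC P+ and 9.01% in KC P-, and 36.2% and 8.09% in phod2. XTH7 took 5.88% and 16.8% in KC and 9.43% and 21.9% in phod2, and so was the most abundant member in P- in both genotypes. XTH31 took 2.34% and 9.37% in KC and 2.0% and 14.9% in phod2. XTH32 took 0.406% and 5.46%, then 0.634% and 6.96%. XTH22 took 10.3% and 10.6% in KC and 3.51% and 5.55% in phod2. Shares of a total are tied to each other.

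The alpha-expansin genes EXPA1 and EXPA8 differed between genotypes in their condition difference (interaction -1.34 ± 0.096 and -1.67 ± 0.12, adjusted p = 1.04e-06 and 8.53e-07 by edgeR). Their change in P- was -0.06 and -0.48 in KC and -1.40 and -2.15 in phod2, so the fall was larger in phod2. The interaction had the opposite sign to the 6 XTH members called in the higher direction. Mean levels in P+ were higher for phod2 than for KC, at 93.7 against 47.7 FPKM (EXPA1) and 21.2 against 12.4 (EXPA8). Mean levels in P- were lower for phod2, at 34.1 against 45.1 FPKM (EXPA1) and 4.56 against 8.77 (EXPA8).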
